A study of Mus musculus with 219 samples.

Results

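The genes described are 8 genes of the sterol pathway: Hmgcs1, Idi1, Fdft1, Sqle, Lss, Cyp51, Sc5d and Insig1. They were taken by symbol, with earlier results of these data known. Each is 1 of the 32285 genes in both count tables, one of 2-cell blastomeres and one of blastocysts. Of the 8, 7 encode enzymes of cholesterol synthesis, and Insig1 encodes the protein that holds the pathway back when sterols are plentiful. None of them takes cholesterol into the cell, so genes of uptake were described beside them from a list of their own. The embryos came from B6C3F1 oocytes of females aged 6 to 8 weeks, fertilized by intracytoplasmic injection of cryopreserved CD1 sperm (ICSI) and grown in KSOM(aa). The sperm head had been placed opposite the meiotic spindle (contralateral ICSI), next to it (ipsilateral ICSI) or midway between (equatorial ICSI). All the groups share this injected origin, and there was no group fertilized without injection. Both blastomeres of 55 2-cell embryos had been sequenced singly by SMART-Seq, which copies messenger RNA over its length: 21 embryos after contralateral, 21 after ipsilateral and 13 after equatorial ICSI. The blastocysts were 31 intact ones, from 2-cell embryos left whole (11 contralateral, 8 ipsilateral and 12 equatorial), and 19 pairs of twin blastocysts, each grown from a separated blastomere cultured alone (6, 7 and 6 pairs). A twin thus started from a single blastomere, and bisection and culture alone cannot be told apart in the comparison of twin with intact blastocysts. A pair also entered only where both blastomeres had formed a blastocyst, and this selection cannot be told apart from them either.

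Cholesterol is built from acetyl-CoA in a chain of steps. Hmgcs1 makes HMG-CoA, the precursor of mevalonate; Idi1 interconverts the 2 activated isoprene units; Fdft1 joins 2 farnesyl groups into squalene; Sqle oxidises squalene; Lss closes the rings to give lanosterol; Cyp51 removes a methyl group from lanosterol; and Sc5d puts in a double bond near the end of the chain. When sterols in the membrane of the endoplasmic reticulum are low, the carrier Scap takes the factors Srebf1 and Srebf2 to the Golgi, where the proteases Mbtps1 and Mbtps2 release them to switch on genes of synthesis and uptake. Insig1 and Insig2 retain Scap. In embryos cholesterol is needed for new membranes and for the processing of Hedgehog proteins. None of the values below measures sterols or enzyme activity.

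The genes of this pathway are known for promoters that hold a sterol response element beside sites of the factors NF-Y (a CCAAT box) and Sp1 (a GC box). The RefSeq table of promoters (GRCm38.p6, 250 bases before to 50 after each start) held 6 of the 8 genes, and Sqle and Fdft1 were not in it. Each of the 6 promoters held CCAAT and each held GGGCGG on one or the other strand, against 37.4% and 35.7% of all 32851 promoters of this length. The letters TCACNCCAC, a core of sterol response elements, were found in 1 of the 6, that of Hmgcs1, and in 1.24% of all promoters; no match says only that these letters are not in the window. The matches of the 3 motifs do not overlap each other in these promoters. A stretch around a CCAAT box of each promoter is shown 5′ to 3′ on the strand of the gene, with the box in capitals (CCAAT, or ATTGG where it lies on the other strand), because the box is, with the GC box, found in each of the 6 promoters. That of Hmgcs1 is longer, to show 2 of its boxes with the sterol response letters between them, also in capitals.
Hmgcs1, chr13:119690171-119690315, plus strand: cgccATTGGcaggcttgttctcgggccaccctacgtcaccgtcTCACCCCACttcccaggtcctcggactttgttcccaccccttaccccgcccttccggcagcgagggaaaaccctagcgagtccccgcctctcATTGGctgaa
Idi1, chr13:8885549-8885578, plus strand: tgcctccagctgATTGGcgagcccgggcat
Lss, chr10:76531531-76531560, plus strand: ggtgatgctctgATTGGccgagctcgcatc
Cyp51, chr5:4104709-4104738, minus strand: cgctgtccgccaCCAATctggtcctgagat
Sc5d, chr9:42264307-42264336, minus strand: cgccggctgctgATTGGccggctgcctgca
Insig1, chr5:28071184-28071213, plus strand: cgccctcctcccATTGGctccggcggcctc
In Hmgcs1 the sterol response letters begin 137 bases before the start. The box shown lies 20 to 24 bases before the start in Sc5d, 25 to 29 in Cyp51, 58 to 62 in Lss and 212 to 216 in Insig1. Idi1 has a second box, nearer to its start, at 10 to 14 bases, and the one shown is at 41 to 45. All these distances are to the RefSeq start. In the annotation used for exonic lengths (GENCODE M21) Cyp51 and Idi1 begin farther upstream, so their boxes lie inside the annotated gene. These are matches of letters, with no measurement of binding in these embryos.

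The 2-cell libraries had a median of 1340425 counts on genes (360474 to 2100561), the intact blastocysts 705837 (234099 to 1254428) and the twin blastocysts 1093478 (713410 to 2161062). Twin libraries were thus deeper than intact ones, and 6 intact and 2 2-cell libraries held under 500000 counts. Twins and intact blastocysts were all on plate 2 of the 2 plates, whereas 42 of the 55 2-cell embryos were on plate 1. The level of a gene is given as CPM, its counts per 1000000 counts of the embryo with both sisters or both twins added, and tests used the embryo as the replicate. Levels of different genes are compared only as TPM, which divides by exonic length. A difference is a log2 fold change from edgeR's quasi-likelihood fit ± its standard error, with the p adjusted over all genes tested (Benjamini-Hochberg), and a gene is said to be called, or to have risen or fallen, where the adjusted p was under 0.05. Markers fitted the labels of stage: the summed level of 8 trophectoderm markers was 110 ± 37.9 CPM in 2-cell embryos (SD, n = 55), 4155 ± 897 in intact blastocysts (n = 31) and 3481 ± 220 in twins (n = 19), and that of 8 oocyte markers was 4540 ± 482, 90.9 ± 105.05 and 559 ± 84.7 CPM. The oocyte sum was thus higher in twin than in intact blastocysts. Dppa3, the only gene of that list tested between them, was higher in twins by 2.89 ± 0.32 (adjusted p = 1.06e-09). The list was drawn up for oocyte and early embryo, and whether the higher sum is RNA kept from the oocyte was not tested. Markers of cumulus cells, which surround the oocyte, summed to 8.86 ± 8.45 CPM in 2-cell embryos and to 3.19 ± 7.86 and 2.03 ± 1.86 CPM in intact and twin blastocysts.

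Each of the 8 genes was measured at both stages, but the order of their levels differed. In 2-cell embryos Fdft1 was at the top per length with 167 ± 42.9 TPM (SD, n = 55), followed by Hmgcs1 with 145 ± 43.3, Insig1 with 121.1 ± 33.6 and Idi1 with 120 ± 35.7 TPM. Sqle followed with 84.1 ± 32.8, and Sc5d with 26.9 ± 13.9 and Cyp51 with 24.9 ± 17.7 TPM were low. Lss was at the bottom with 4.48 ± 3.18 TPM, a level that is understated because its annotated exons sum to 10787 bases. Neighbours in this order mostly overlapped: Fdft1 stood above Hmgcs1 in 32 of 55 embryos, Insig1 above Idi1 in 26 and Sc5d above Cyp51 in 29. The clear steps were from Sqle down to Sc5d and from Cyp51 down to Lss, each in 52 of 55 embryos.

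In intact blastocysts Insig1 led with 203 ± 169 TPM (n = 31), Idi1 and Hmgcs1 had 139 ± 64.4 and 138 ± 56.1, and Cyp51, Sqle and Fdft1 lay together at 108.998 ± 48.4, 101.6 ± 38.2 and 99.9 ± 48.4 TPM. Fdft1 stood above Lss in 31 of 31 intact embryos, whereas each step among the first 6 genes held in 17 to 21 of 31. In twin blastocysts Idi1 led with 160 ± 26.7 TPM (n = 19), and Insig1 followed 4 other genes with 85.7 ± 26.7 TPM. Lss and Sc5d were the lowest genes per length in both kinds of blastocyst, with 19.2 ± 12.2 and 13.1 ± 8.47 TPM in intact ones, though the place of Lss rests on the long exon sum that understates it.

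**Figure D1:**
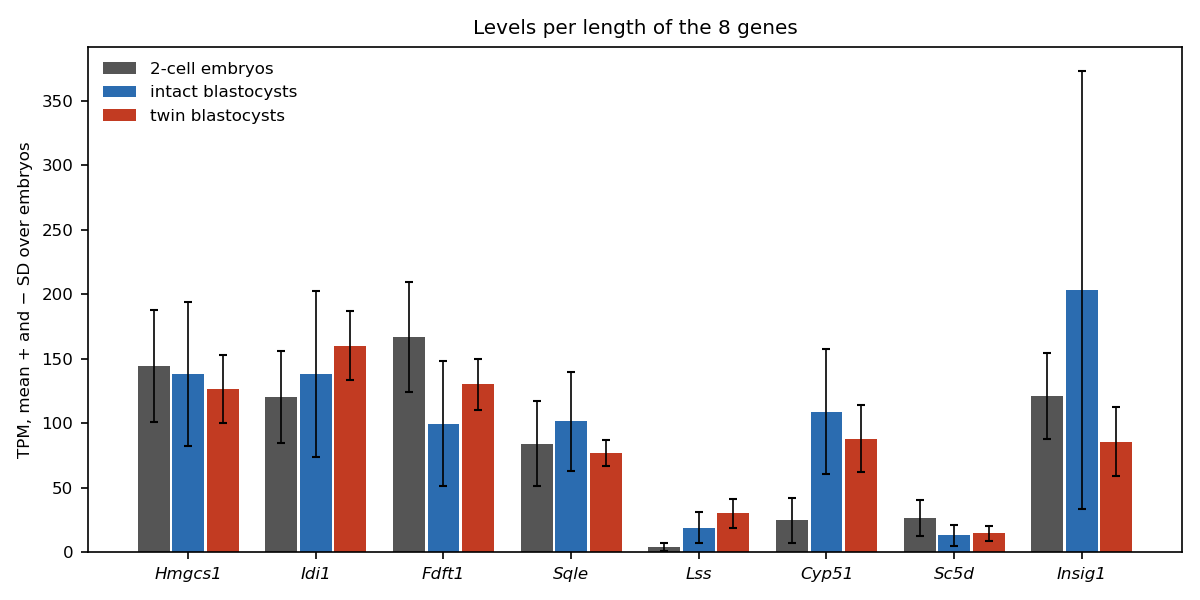
Levels per length (TPM, linear scale) of the 8 genes in 2-cell embryos, intact blastocysts and twin blastocysts; bars are means over embryos and error bars the SD. Cyp51 and Lss are far lower in 2-cell embryos than in blastocysts, and Fdft1 and Sc5d are higher there.

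Between the 2-cell stage and the intact blastocyst Cyp51, Lss and Insig1 rose, Fdft1 and Sc5d fell, and Hmgcs1, Idi1 and Sqle were not called. Cyp51 rose by 2.02 ± 0.21 (log2 fold change ± SE, adjusted p = 7.88e-15) and Lss by 1.99 ± 0.27 (adjusted p = 2.76e-10), while Insig1 rose by 0.57 ± 0.13 (adjusted p = 3.65e-05). Fdft1 fell by 0.89 ± 0.11 (adjusted p = 2.73e-12) and Sc5d fell by 1.01 ± 0.22 (adjusted p = 2.56e-05). Sqle, Idi1 and Hmgcs1 differed by 0.17, 0.23 and -0.15, with adjusted p of 0.165, 0.103 and 0.190. Thus 5 of the 8 genes were called in this main fit, 3 higher and 2 lower. Under other settings 5 recomputed results of Sqle, Idi1 and Hmgcs1 were called, with unchanged direction. All these differences are relative to the other genes of a library and are not amounts per embryo. Calls were the rule between these stages: 83.5% of the 15682 genes tested were called, 34% higher and 49.5% lower, and the median gene differed by -0.56, against 0.20 for the 8 genes.

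In single libraries Cyp51 had a median of 28.7 CPM in blastomeres (0 to 123), 150 CPM in intact blastocysts (40.01 to 308) and 130 CPM in twins (56.3 to 286). It was at 0 counts in 12 of 110 blastomeres, and Lss in 22 of 110, which at these depths allows up to 1.49 to 3.16 CPM and 1.55 to 3.53 CPM for a count of 0 (3 counts of each total, counting error only). Neither gene was at 0 in a twin library, and Lss was at 0 in 1 intact embryo. With only the 13 2-cell embryos of plate 2, the plate of the blastocysts, Cyp51 was higher by 3.19 ± 0.47 and Lss by 2.16 ± 0.51, Fdft1 and Sc5d were lower by -0.72 ± 0.20 and -1.08 ± 0.37, and the same 5 genes were called. The number of all genes called there stayed within 1.5 times that of the main fit, in which most genes were called. Blastomeres and blastocysts had been aligned and deposited as separate sets, so stage and set cannot be told apart. The paper also states that part of the blastomere libraries had longer paired reads, of which the first was kept and shortened. Blastocysts had single reads only.

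Other genes of the pathway were counted between the stages in the same way. Of 13 other genes of sterol synthesis, 11 rose and none fell (Dhcr7 differed by 0.27 and Hsd17b7 by -0.21), with a median of 1.91. Among all genes 34% rose and 49.5% fell. Pmvk, which adds the second phosphate to mevalonate, rose by 4.57 ± 0.40 (adjusted p = 1.89e-18). Others rose by 3.91 (Mvd), 3.10 (Tm7sf2), 2.71 (Acat2), 1.91 (Fdps), 1.78 (Msmo1), 1.66 (Nsdhl), 1.54 (Mvk) and 0.91 (Ebp), with adjusted p of 0.0105 or less. Of the regulators, Srebf1 rose by 3.49 ± 0.45 (adjusted p = 1.96e-11), Srebf2 by 0.59 ± 0.11 (adjusted p = 9.58e-07) and Insig2 by 0.59 ± 0.25 (adjusted p = 0.0244), while Scap fell by 1.96 ± 0.16 (adjusted p = 1.26e-20).

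Twin and intact blastocysts were then compared. The feedback gene Insig1 was lower in twins, as were Sqle and Cyp51, and Fdft1 was slightly higher, so the 8 genes did not move one way. Insig1 had 92.4 ± 27.9 CPM in twins (SD, n = 19) and 218 ± 182 CPM in intact blastocysts (n = 31). Its lowest, median and highest embryos were 53.1, 80.0 and 143 CPM in twins and 63.2, 180 and 1092 CPM in intact blastocysts. With the counts of each pair added, no twin pair lay above the intact median, and 23 of 31 intact embryos lay above every added pair. Single twins of Insig1 ranged from 29.3 to 185 CPM. The groups still overlapped, since only 2 added pairs were below every intact embryo. The difference was -1.26 ± 0.21 (adjusted p = 1.63e-06). The embryo at 1092 CPM was an intact one after contralateral ICSI, and without any single embryo the difference stayed between -1.31 and -1.10 and was called in 50 of 50 fits.

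**Figure D2:**
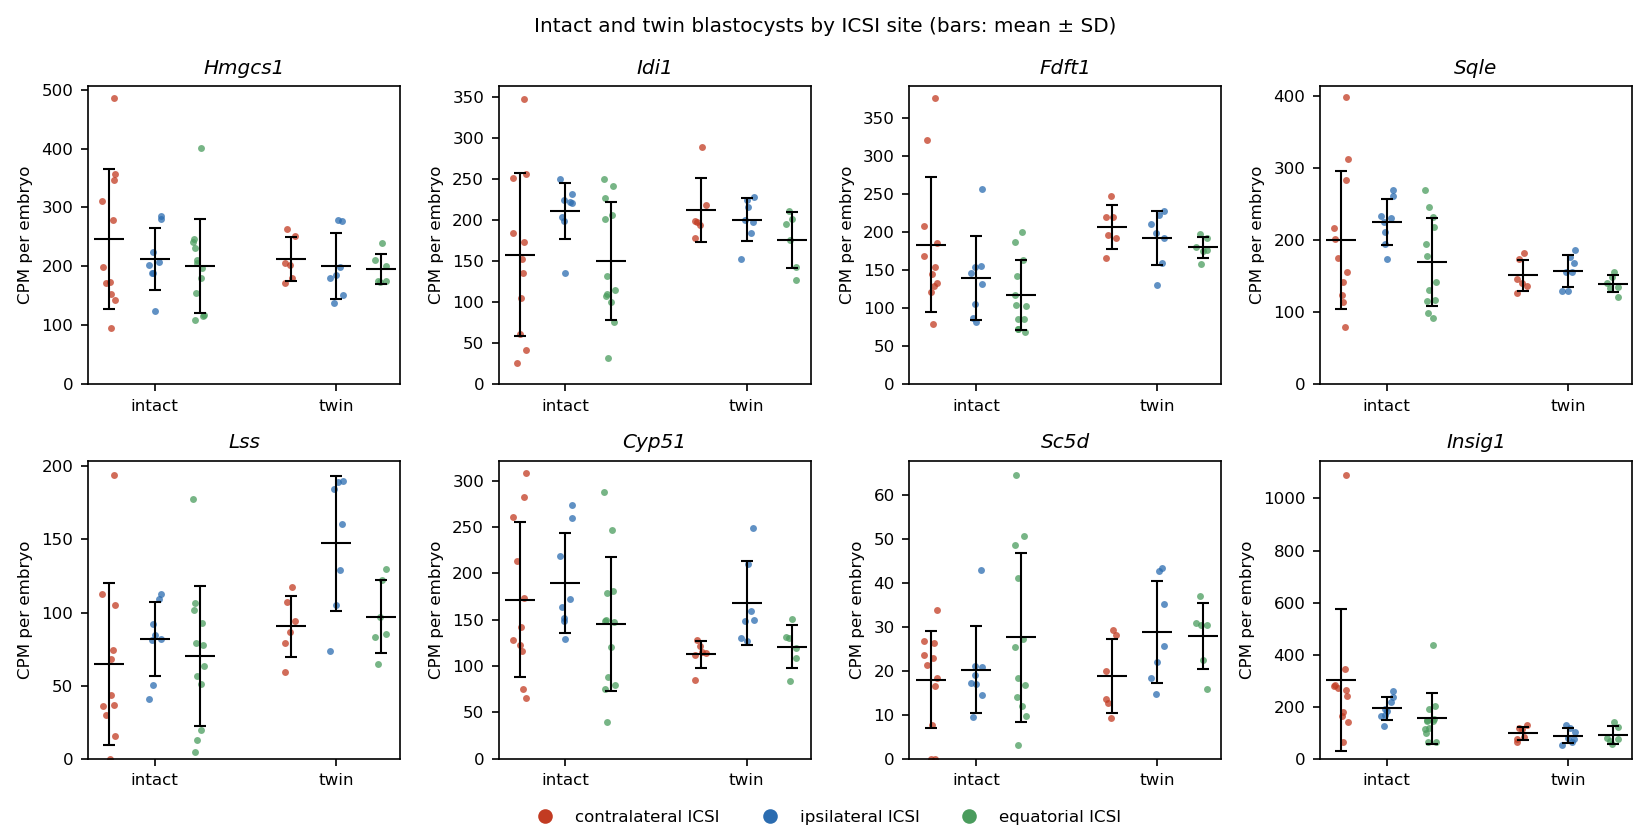
CPM of the 8 genes in intact and twin blastocysts by ICSI site, given by colour; each point is an embryo (twins added) and bars are the mean and SD. Intact embryos scatter widely, and in Insig1 and Sqle all 19 added twin pairs lie below the intact median. A twin point adds both twins and an intact point is a single blastocyst, so their spreads cannot be compared directly.

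Sqle, which oxidises squalene, had 150 ± 19.9 CPM in twins (121.6, 146 and 186 CPM as the lowest, median and highest embryo) and 195 ± 72.4 CPM in intact blastocysts (78.9, 195 and 398 CPM). The difference was -0.48 ± 0.13 (adjusted p = 0.00292). With the counts of each pair added, all 19 twin pairs of Sqle lay below the intact median, although 6 of 31 intact embryos were below every added pair. Single twins ranged from 83.1 to 204.7 CPM, so some lay above that median. Cyp51 had 136 ± 39.3 CPM in twins (83.4, 128.6 and 249.4 CPM) and 166 ± 72.4 CPM in intact blastocysts (40.01, 150 and 308 CPM), a difference of -0.42 ± 0.16 (adjusted p = 0.0258). The added twin pairs of Cyp51 sat inside the intact range, with 4 of 19 above the intact median.

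Fdft1, the squalene synthase, had 192 ± 28.6 CPM in twins (130, 193 and 248 CPM) and 146 ± 70.8 CPM in intact blastocysts (67.9, 133 and 376 CPM). Of the added twin pairs 18 of 19 lay above the intact median. The difference was 0.35 ± 0.14 (adjusted p = 0.0449). This call sits at the threshold: with each embryo left out in turn it held in 22 of 50 fits, with adjusted p from 0.0116 (without an intact contralateral embryo, number 82) to 0.0877 (without the twin pair ICSI_Co_twin_126a and ICSI_Co_twin_126b). Lss, which forms lanosterol, had 113.6 ± 41.3 CPM in twins (59.2, 104.9 and 190 CPM) and 71.4 ± 45.3 CPM in intact blastocysts (0, 74.1 and 194 CPM). Its difference of 0.53 ± 0.24 was not called (adjusted p = 0.0661), though 16 of 19 added twin pairs lay above the intact median. Without the intact contralateral embryo 88, or without the intact embryo ICSI_Eq_intact_107, it was called (adjusted p = 0.0195 and 0.0381).

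The other 3 genes were not called. Hmgcs1 had 203 ± 41.1 CPM in twins and 220 ± 89.9 CPM in intact blastocysts (-0.19 ± 0.14, adjusted p = 0.288, 95% interval -0.47 to 0.09). Idi1 had 196 ± 34.9 and 168 ± 78.3 CPM (0.12 ± 0.16, adjusted p = 0.586, interval -0.21 to 0.45). Sc5d had 25.3 ± 10.1 and 22.3 ± 14.8 CPM (0.11 ± 0.28, adjusted p = 0.779, interval -0.45 to 0.67). None of these intervals is narrow enough to show that a level is shared. In sum 4 of the 8 genes were called, 1 higher and 3 lower, with a median of -0.038. The background is as dense: 40.7% of the 10689 genes tested were called between twin and intact blastocysts, 20.1% higher and 20.6% lower, with a median of 0.0031. A count of 4 in 8 is near that share.

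Depth differed between the kinds of blastocyst, so a fit was run with total counts and number of detected genes per library as covariates. In it 27% of genes were called. Depth and kind went together, so this fit cannot separate the part of depth in a difference. Insig1 stayed lower at -0.80 ± 0.20 (adjusted p = 0.00208), and Fdft1 became clearer at 0.77 ± 0.15 (adjusted p = 0.000108). The calls of Sqle (-0.19 ± 0.15, adjusted p = 0.382) and Cyp51 (-0.32 ± 0.19, adjusted p = 0.212) were lost. Lss shrank to 0.14 ± 0.26 and Idi1 turned to -0.11 ± 0.20. Among 10 intact and 13 twin embryos of a shared range of counts per library (838488 to 1254428) Insig1 differed by -1.08 ± 0.23 (adjusted p = 0.000721) and Fdft1 by 0.65 ± 0.16 (adjusted p = 0.00375), and Sqle and Cyp51 by -0.096 ± 0.16 and -0.23 ± 0.22, which were not called. That range held 4 contralateral and 6 equatorial intact embryos but no ipsilateral one, so the fit had no site term. Twins entered it as the added counts of both, so the depth tested was not matched. Of the 4 genes called, Insig1 and Fdft1 thus kept their direction and their call in both fits.

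**Figure D3:**
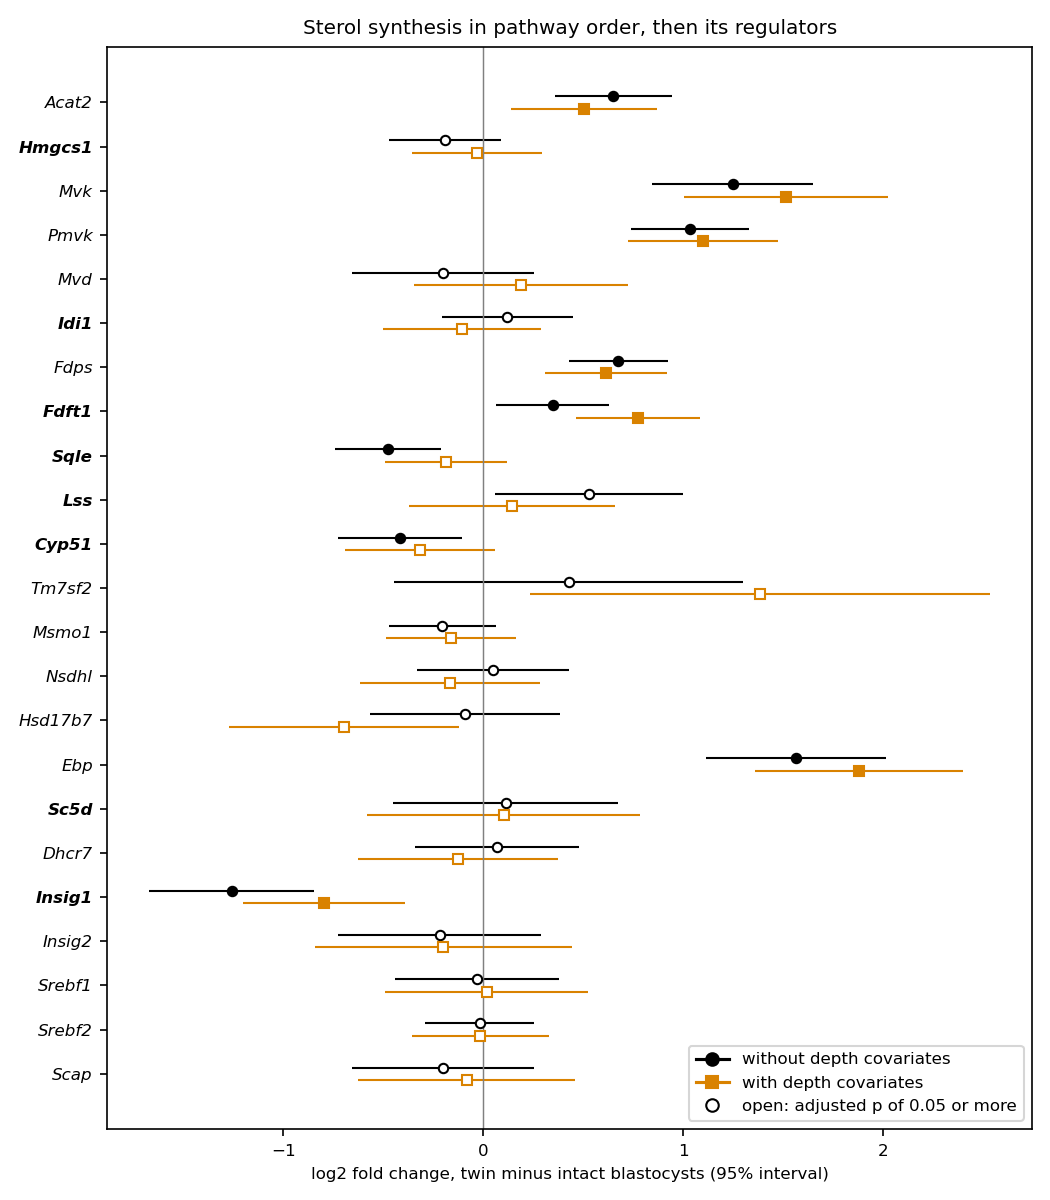
Difference between twin and intact blastocysts (log2 fold change with 95% interval) for the 8 genes, in bold, and other genes of sterol synthesis in pathway order, then 4 regulators; circles are without and squares with depth covariates, and filled markers have an adjusted p under 0.05. Insig1 lies farthest to the left and Ebp, Mvk and Pmvk to the right.

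By ICSI site, Insig1 was lower in twins by -1.72 ± 0.37 after contralateral (adjusted p = 0.000609), by -1.16 ± 0.35 after ipsilateral (adjusted p = 0.0245) and by -0.89 ± 0.35 after equatorial ICSI (adjusted p = 0.0817). It was the 1 gene of the 8 called after contralateral and after ipsilateral ICSI, and none was called after equatorial ICSI (2 at an unadjusted p under 0.05, and 1 by DESeq2); in these 3 comparisons 17.8%, 10.9% and 13.6% of all genes were called. A test of whether the twin difference itself varied with the site called none of the 8 genes and 0% of all genes (246 genes at an unadjusted p under 0.05), and the lowest unadjusted p among the 8 was that of Insig1, 0.220. The sites are therefore not shown to differ in this respect, nor to be alike. This test shared 1 spread per gene between twin and intact groups.

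Within twins the sites were not told apart for any of the 8 genes in any of the 3 comparisons, in which 0% of all genes were called by edgeR, and none by DESeq2. At an unadjusted p under 0.05 were 41 to 66 genes, and 0 of the 8. That is a smaller share of all genes than 0.05, which the absence of any difference would give. Each fit used 1 spread per gene for twin and intact groups, whose SDs above differ. A difference between twin sites could thus be missed, and likeness of the sites is not shown. Differences of the 8 genes ranged from -0.67 to 0.60, with Lss at both ends: 147 ± 46.03 CPM after ipsilateral, 97.3 ± 24.9 after equatorial and 90.6 ± 20.6 CPM after contralateral ICSI. The smallest unadjusted p was 0.0695, of Cyp51 between contralateral and ipsilateral twins. Within intact blastocysts none of the 8 was called either, beside 0.168% of all genes between contralateral and equatorial, 0% for ipsilateral against equatorial embryos (855 genes at an unadjusted p under 0.05) and 0.0187% between contralateral and ipsilateral ICSI. Insig1 was at 303 ± 274 CPM after contralateral (n = 11), 194 ± 43.5 after ipsilateral (n = 8) and 156 ± 98.3 CPM after equatorial ICSI (n = 12). Its difference between contralateral and equatorial embryos was 0.98 (unadjusted p = 0.00114, adjusted p = 0.121). Insig1 was 1 of 2 of the 8 genes at an unadjusted p under 0.05 in that comparison, DESeq2 called none of the 8 between the sites of intact embryos either, and the comparisons with equatorial ICSI share the equatorial embryos.

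The other genes of the chain that were called in twins all rose. Of 13 other genes of sterol synthesis 6 rose and none fell, with a median of 0.43. In this comparison 40.7% of all genes were called, 20.1% higher and 20.6% lower, so calls as such are common. Ebp, a sterol isomerase late in the chain, rose by 1.56 ± 0.22 (adjusted p = 7.08e-08), from 47.2 ± 40.04 CPM in intact to 135 ± 31.8 CPM in twin blastocysts. Mvk and Pmvk, the kinases of mevalonate and its phosphate, rose by 1.25 ± 0.20 (adjusted p = 1.09e-06) and 1.03 ± 0.15 (adjusted p = 6.48e-08). Fdps, which makes the farnesyl group that Fdft1 uses, rose by 0.67 ± 0.12 (adjusted p = 1.13e-05), and Acat2, a thiolase of the first step, by 0.65 ± 0.15 (adjusted p = 0.000244). With the depth covariates Ebp, Mvk, Pmvk, Fdps and Acat2 were still called.

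Genes of uptake, storage and movement of cholesterol moved both ways. Of 13 such genes tested 3 rose and 6 fell, beside 20.1% and 20.6% of all genes. Soat1, which turns cholesterol into esters for storage, had 165 ± 44.6 CPM in twins and 396 ± 120 CPM in intact blastocysts (-1.38 ± 0.14, adjusted p = 9.15e-13). Lrp2, a large endocytic receptor, had 451 ± 89.01 and 86.5 ± 70.8 CPM (2.42 ± 0.24, adjusted p = 3.78e-11), and both genes kept their call and direction with the depth covariates (-1.11 and 2.59). Soat2 fell by 5.06 ± 0.72 (adjusted p = 6.36e-08), on levels of 8.11 ± 10.98 CPM in intact and 0.212 ± 0.425 CPM in twin blastocysts, where 14 of 19 embryos had no count. Lrp1 alone among the called genes of this list lost its call and turned with the covariates, from -1.18 to 0.60.

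The factors Srebf1 and Srebf2 and the retaining protein Insig2 were not called: Srebf1 differed by -0.03 ± 0.20, Srebf2 by -0.02 ± 0.14 and Insig2 by -0.22 ± 0.25 (adjusted p = 0.923, 0.932 and 0.519). Of 9 regulators tested, Ufd1, a part of a complex that extracts proteins from the membrane for degradation, rose (0.79 ± 0.17, adjusted p = 0.000114) and the protease Mbtps2 fell (-0.60 ± 0.25, adjusted p = 0.0490, not called with the depth covariates). Of 8 genes of side branches such as prenylation 2 rose and 2 fell, and of 10 genes of fatty acid synthesis 1 rose, Elovl6, which elongates palmitate (0.94 ± 0.11, adjusted p = 4.95e-10). The shares of all genes beside these counts were 20.1% higher and 20.6% lower.

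Markers of the cell types of the blastocyst moved too. Of 7 trophectoderm markers tested 1 rose and 4 fell in twins, with summed levels of 3041 to 3810 CPM in twins and 3131 to 6503 CPM in intact blastocysts. Of 8 epiblast markers 5 rose, with sums of 441 to 842 CPM in twins and 28.05 to 639 CPM in intact blastocysts. Of 8 primitive endoderm markers 2 rose and 3 fell, with sums of 836 to 1381 and 565 to 1762 CPM. Beside these counts, 20.1% of all genes rose and 20.6% fell. In whole blastocysts fewer cells of a type and less RNA per cell cannot be told apart, and the part of cell type proportions in the differences above was not tested.

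In 2-cell embryos the ICSI site went with 3 of the 8 genes. Idi1, which interconverts the isoprene units, and Sc5d, late in the chain, were lowest after equatorial ICSI, while Sqle was highest there. Idi1 had 148 ± 33.4 CPM after contralateral ICSI (99.1, 139 and 220 CPM as the lowest, median and highest of 21 embryos), 136 ± 27.7 CPM after ipsilateral ICSI (95.7, 131.01 and 197 CPM, n = 21) and 84.9 ± 36.3 CPM after equatorial ICSI (9.56, 95.4 and 143 CPM, n = 13). All 42 embryos of both polar sites lay above the equatorial median, and 8 of 13 equatorial embryos were below every contralateral one, although the ranges overlapped between 99.1 and 143 CPM. The differences from equatorial embryos were 0.81 ± 0.16 for contralateral (adjusted p = 0.000432) and 0.66 ± 0.16 for ipsilateral ICSI (adjusted p = 0.00828). Both comparisons use the same 13 equatorial embryos.

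**Figure D4:**
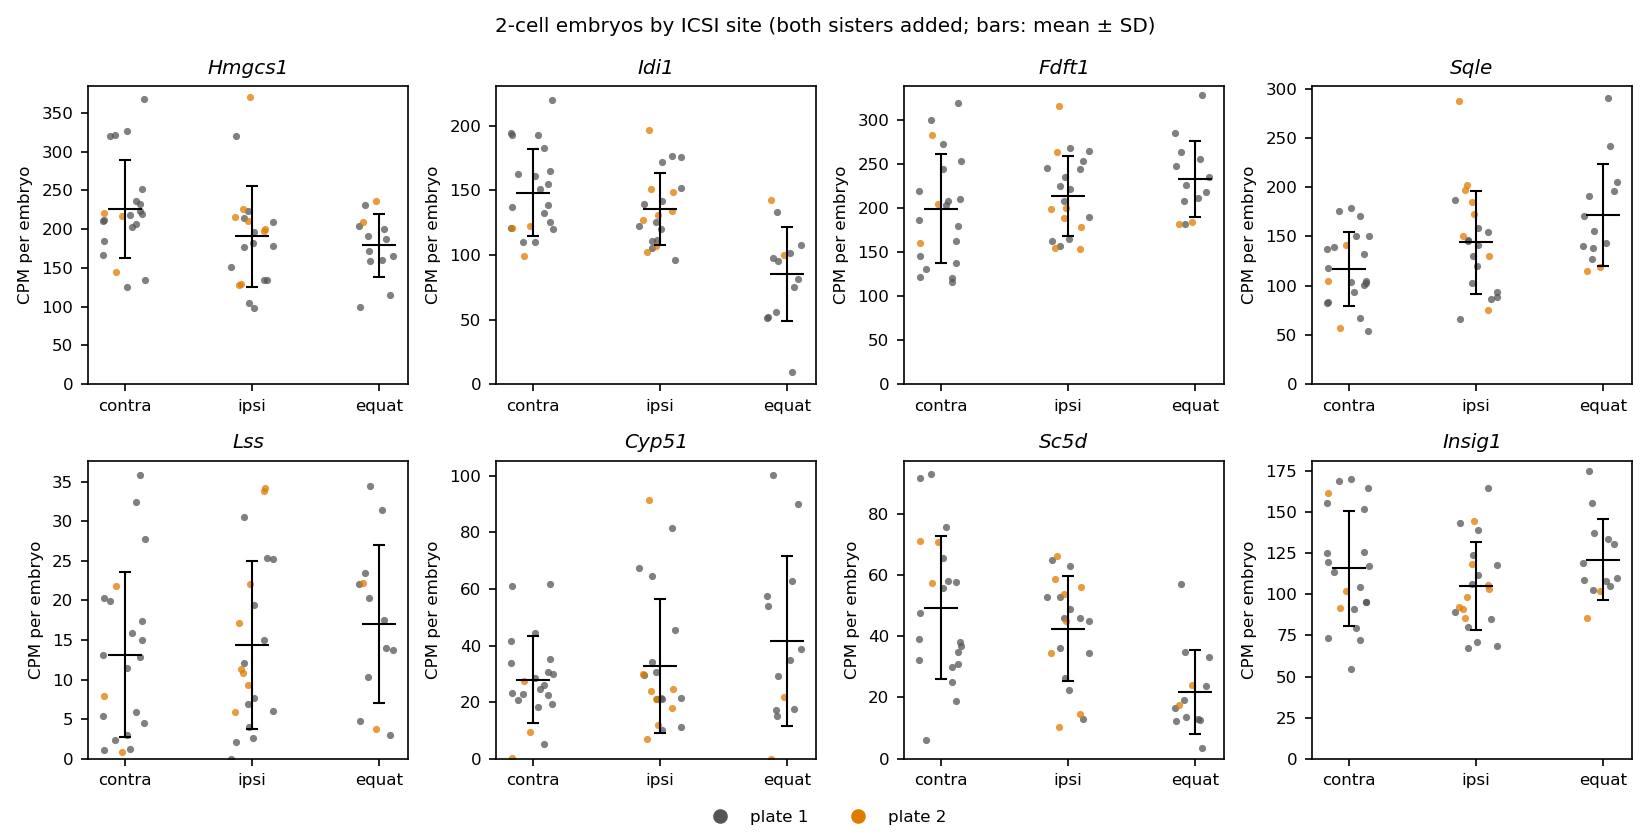
CPM of the 8 genes in 2-cell embryos by ICSI site; each point is an embryo with both blastomeres added, its colour gives the plate, and bars are the mean and SD. Equatorial embryos are lowest in Idi1 and Sc5d and highest in Sqle, with overlap in each.

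Sc5d had 49.3 ± 23.2 CPM after contralateral (6.05, 47.4 and 92.8 CPM), 42.4 ± 17.1 CPM after ipsilateral (10.3, 45.8 and 66.03 CPM) and 21.7 ± 13.7 CPM after equatorial ICSI (3.62, 17.6 and 57.1 CPM). The differences were 1.17 ± 0.29 (adjusted p = 0.00321) and 0.92 ± 0.29 (adjusted p = 0.0408). Of the contralateral embryos 20 of 21 lay above the equatorial median, and of the ipsilateral ones 18 of 21. Sqle went the other way, with 116.5 ± 37.5 CPM after contralateral (53.7, 104.6 and 179 CPM), 144 ± 51.95 CPM after ipsilateral (66.3, 145 and 288 CPM) and 172 ± 52.1 CPM after equatorial ICSI (114.5, 156 and 291 CPM). Here 11 of 21 contralateral embryos lay below every equatorial one. The difference was -0.57 ± 0.16 between contralateral and equatorial (adjusted p = 0.0123) and -0.32 ± 0.17 between ipsilateral and equatorial ICSI, which was not called (adjusted p = 0.316).

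The remaining 5 genes were not called in either comparison. Hmgcs1 was nearest, at 226 ± 63.7, 191 ± 65.5 and 179 ± 40.5 CPM after contralateral, ipsilateral and equatorial ICSI (0.34 ± 0.15 between contralateral and equatorial, adjusted p = 0.120). Insig1 was at 115.8 ± 34.97, 105.1 ± 26.9 and 120.98 ± 24.6 CPM and Fdft1 at 199 ± 61.9, 214 ± 45.2 and 233 ± 43.2 CPM. Cyp51 and Lss were low and scattered, with 27.97 ± 15.4, 32.8 ± 23.7 and 41.5 ± 30.04 CPM for Cyp51 and 13.2 ± 10.4, 14.4 ± 10.6 and 16.999 ± 10.0 CPM for Lss. Their 95% intervals between contralateral and equatorial embryos were -1.28 to 0.17 and -1.30 to 0.55.

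Against the background, 3 of 8 genes were called between contralateral and equatorial ICSI, 2 higher and 1 lower, where 13.2% of the 13141 genes tested were called, 7.12% higher and 6.06% lower. Between ipsilateral and equatorial ICSI 2 of 8 were called, both higher, where 6.65% of genes were called, 3.43% higher and 3.22% lower. The 8 genes were chosen with earlier results of these data known, so these counts do not test them as a set. The medians of the 8 genes were -0.15 and -0.10, and those of all genes -0.00015 and 0.012. Between contralateral and ipsilateral ICSI none of the 8 was called, by edgeR or DESeq2, as was 0% of all genes (555 at an unadjusted p under 0.05 with edgeR), and the lowest unadjusted p was 0.0300, of Hmgcs1 (0.29 ± 0.13).

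Equatorial blastomeres were shallower, with a median of 1108741 counts and 11514 detected genes, against 1297280 and 12085 after contralateral and 1530273 and 12164 after ipsilateral ICSI. With total counts and detected genes as covariates, Idi1 and Sc5d were still called between contralateral and equatorial ICSI (0.77 ± 0.17 and 1.18 ± 0.31, adjusted p = 0.00218 and 0.0103), Sqle was not (-0.45 ± 0.18, adjusted p = 0.114), and 8.98% of all genes were called. Between ipsilateral and equatorial ICSI none of the 8 was then called, beside 0.472% of all genes: Idi1 stood at 0.57 ± 0.19 (adjusted p = 0.135) and Sc5d at 0.87 ± 0.33 (adjusted p = 0.215). Within plate 1 alone the contralateral differences were 1.00 ± 0.18 for Idi1 (adjusted p = 0.000103), 1.11 ± 0.32 for Sc5d (adjusted p = 0.00995), -0.60 ± 0.16 for Sqle (adjusted p = 0.00621) and, now called, 0.45 ± 0.15 for Hmgcs1 (adjusted p = 0.0347). The ipsilateral ones were 0.78 ± 0.19 for Idi1 (adjusted p = 0.00637), 0.95 ± 0.33 for Sc5d (adjusted p = 0.0585) and, now called, -0.55 ± 0.17 for Sqle (adjusted p = 0.0344). In both comparisons on plate 1 the number of all genes called stayed within 1.5 times that of the main fit. Plate 2 held 2 equatorial embryos, too few for values of its own.

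Leaving out each equatorial embryo in turn kept the call of Idi1 in 13 of 13 fits in both comparisons, and those of Sc5d and Sqle in 13 of 13 between contralateral and equatorial ICSI. The call of Sc5d between ipsilateral and equatorial ICSI held in only 4 of 13, with adjusted p from 0.0103 without embryo 38 to 0.0723 without embryo 43.

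Other genes of the pathway were counted by site against the same shares of all genes, 13.2% for contralateral and 6.65% for ipsilateral against equatorial ICSI. Of 12 others of sterol synthesis 1 was called in each comparison with equatorial ICSI, Nsdhl, which removes methyl groups together with Msmo1, at 1.25 ± 0.41 for contralateral (adjusted p = 0.0312) and 1.49 ± 0.42 for ipsilateral ICSI (adjusted p = 0.0210). Among 10 regulators the protease Mbtps2 was higher (0.65 ± 0.17 and 0.81 ± 0.17, adjusted p = 0.00502 and 0.00199) and the carrier Scap lower (-0.49 ± 0.16 and -0.62 ± 0.17, adjusted p = 0.0337 and 0.0139). Of these calls that of Mbtps2 for contralateral ICSI was the only one kept with the depth covariates.

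Sister blastomeres and twins were compared next, to see whether cells of 1 embryo resembled each other. Likeness is given as the intraclass correlation, the share of the variance between single libraries of a site that lies between embryos, and tested by an F test of embryo within site. For sister blastomeres both were taken within site and plate. Folds between the members of a pair are ratios of CPM + 1. Hmgcs1 was the 1 gene of the 8 called in sister blastomeres (F = 2.93, adjusted p = 0.000642), where 10.8% of the 11712 genes tested were called. Its sisters differed by a median of 1.25-fold, under 2-fold in 54 of 55 pairs, with an intraclass correlation of 0.51 against a median of 0.18 over 7586 genes above 10 CPM. The widest pair, after ipsilateral ICSI, had 184 and 80.4 CPM. Fdft1 was next but not called (F = 1.82, adjusted p = 0.0778, intraclass correlation 0.28).

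**Figure D5:**
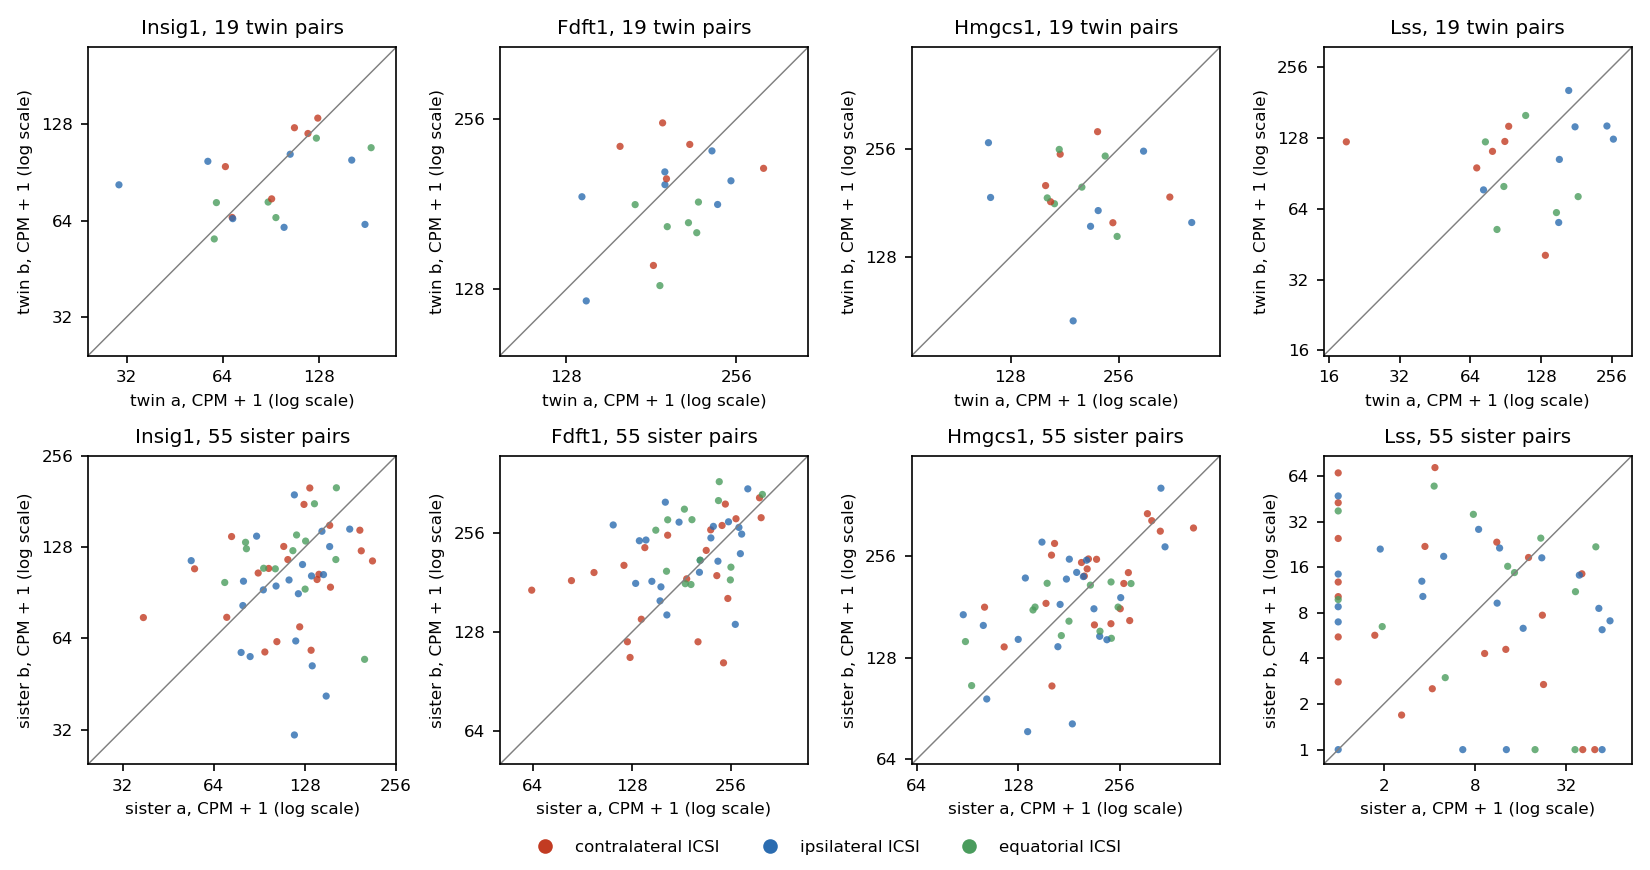
Level in one member of a pair against the other (CPM + 1, log scale, coloured by ICSI site) for Insig1, Fdft1, Hmgcs1 and Lss, in 19 twin pairs and 55 pairs of sister blastomeres, with the line of equality. Hmgcs1 follows the line in sisters, and Lss is spread along both axes, with many blastomeres at 0.

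At the other end stood Lss and Cyp51. Lss differed by a median of 4.58-fold between sisters, under 2-fold in 11 of 55 pairs, and in 20 pairs 1 sister had no count while the other had some. Cyp51 differed by a median of 2.29-fold, with 10 such pairs. For each of these genes 1 further pair had no count in either sister, which enters as no difference. In the widest pairs, both after contralateral ICSI, Lss had 0 and 66.4 CPM and Cyp51 0 and 69.7 CPM. Their intraclass correlations were -0.26 and -0.015, at or below 0, so likeness of sisters was not shown for them. Over the pairs in which both sisters had counts, counting error alone would give a median difference of 1.31-fold for Lss and 1.18-fold for Cyp51. The medians above cover all 55 pairs, those with a count of 0 included, so they cannot be set directly against these values.

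In twins none of the 8 genes was called, nor were more than 0.911% of the 9773 genes tested. Insig1 had the smallest p (F = 2.32, unadjusted p = 0.0201, adjusted p = 0.320) and an intraclass correlation of 0.35, against a median of 0.10 over 8602 genes. Its twins differed by a median of 1.21-fold and under 2-fold in 17 of 19 pairs, though the widest pair, after ipsilateral ICSI, had 177 and 61.3 CPM. Fdft1 twins were under 2-fold apart in 19 of 19 pairs, with an intraclass correlation of 0.31. Yet their median difference on log2(CPM + 1) was 0.33 within pairs and 0.26 between unrelated twins of a site. Sqle, Idi1, Hmgcs1, Lss and Cyp51 had values below 0 (-0.20 to -0.10), so likeness of twins was not shown for them. For Insig1 the median difference on log2(CPM + 1) was 0.28 within pairs and 0.60 between unrelated twins of a site. It was also lower within pairs for Idi1, Sc5d and Cyp51, and higher within pairs for Hmgcs1, Sqle and Lss, as for Fdft1. No spread of the unrelated differences was computed, and there were only 19 pairs.

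Across embryos the 8 genes were only loosely tied. Over the 50 blastocyst embryos the median correlation of their 28 pairs on log2(CPM + 1) was 0.22, from -0.37 for Insig1 with Sc5d to 0.56 for Sqle with Cyp51. Among the 5 genes most like the mean of the 8 were Scd2, a fatty acid desaturase (r = 0.75), Dvl3 (r = 0.59), Per3 and Taf2 (r = 0.56 each), out of 10681 genes whose median was 0.07. Over the 55 2-cell embryos the median pair was at -0.027, from -0.43 for Sqle with Idi1 to 0.40 for Idi1 with Sc5d. The most like there were Hdx (r = 0.54), Gm47808 (r = 0.50), and Siah1a, Opn1sw and Gm9125 (r = 0.49 each). These correlations are descriptions, over embryos that differ in depth, kind and site together.

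Some counts cannot be assigned with certainty, because the reads were counted without strand. Lss shares 11268 bases with the antisense gene 4930483K19Rik and Hmgcs1 shares 6190 with the antisense Gm48342. Fdft1 overlaps Ctsb over 774 bases, Idi1 overlaps Gm48574 over 323 and Cyp51 overlaps Akap9 over 166, each on the opposite strand. Sqle, Sc5d and Insig1 overlap no other annotated gene (GENCODE M21, GRCm38). The overlaps given are of whole gene spans, introns included, and do not show how many counts are shared.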

How the data were processed

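Single blastomeres and single blastocysts had been lysed and copied to cDNA with a SMART-Seq kit on 2 plates. The authors trimmed the reads with Trimmomatic 039, checked them with FastQC 0.12.1 and aligned them without strand with STAR 2.7.10b to GRCm38 with GENCODE M23. The deposited values are whole-number counts of each gene in each library, without normalization, in which a read is not a molecule because the kit has no molecular identifiers, so limits cover counting error only. ICSI site, pair, sister and plate were taken from the labels. The study's minimum of 9500 detected genes per blastomere and 4000 per blastocyst was applied, and both sisters were required. The paper also names a limit on mitochondrial counts of blastomeres, which the main fits did not apply. Kept blastomeres held 0.756% to 4.00% of mitochondrial counts.

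From the counts, CPM and TPM were computed here, TPM with exonic lengths of GENCODE M21, an earlier release. The main test was edgeR's quasi-likelihood test (TMM, filterByExpr, robust) on counts added per embryo, with 6 groups of blastocysts, plate as a covariate in 2-cell embryos, Benjamini-Hochberg adjustment over all genes and a threshold of 0.05. Single libraries entered the F test of embryo within site, and within plate as well for blastomeres. Correlations used log2(CPM + 1). The 8 genes and the other lists were chosen with earlier results of these data known. Named are the 8 genes, Srebf1, Srebf2 and Insig2, the called genes of sterol synthesis, and up to 4 called genes of another list by adjusted p, while Lrp1 was named after its values were seen; some genes of these lists enter the counts but are not reported here by name. The scripts were tested on simulated counts. Software was R 4.3.3, edgeR 4.0.16, limma 3.58.1, DESeq2 1.42.0, Python 3.11.15, pandas 2.3.3, numpy 2.4.6 and matplotlib 3.10.9. Of 62 sister pairs 55 passed the minimum. Alternatives were other scaling, no filter on low counts, depth covariates, a shared range of depth, 1 twin or sister only, no shallow libraries, no site or plate term, plate 1 alone, a limit of 2% on mitochondrial counts, all pairs, a rank-sum test on CPM, DESeq2 and each embryo left out.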

Additional observations from a re-analysis of the deposited data

Results flagged for a closer look

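Among 32 groups of 4 to 10 embryos, 1 for each of the 8 genes in each small group of blastocysts, 4 held an embryo far from its group, with a gap to the nearest embryo larger than Dixon's limit of 5% allows, which chance gives in about 1 of 20 groups. Idi1 was lowest at 136 CPM in the intact ipsilateral embryo 89, where the next lowest of 8 had 198 CPM. Idi1 was highest at 289 CPM in the twin pair ICSI_Co_twin_126a and ICSI_Co_twin_126b, where the next of 6 had 218 CPM. Fdft1 was highest at 256 CPM in the intact ipsilateral embryo 90, where the next of 8 had 155 CPM. Sc5d was highest at 42.9 CPM in the intact ipsilateral embryo 96, where the next of 8 had 21.03 CPM. Without that twin pair the difference between twin and intact blastocysts in Fdft1 was no longer called (adjusted p = 0.0877), and without embryo 90 it had an adjusted p of 0.0153.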

How the results depend on the processing

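Of 618 results recomputed under an alternative other than leaving out an embryo, 532 kept their direction and their side of the threshold, or, for counts, stayed within 1.5 times. Counts of all genes that moved farther are given in this section, and the others stayed within 1.5 times the main one. Fits that took depth into account called fewer genes: between twin and intact blastocysts 2885 genes were called with total and detected genes as covariates, 2767 with the total alone, 2350 in the shared range of depth and 1578 in that range with 1 twin of each pair (chosen after seeing the data), and 2 of the 8 genes each time. With both covariates the calls by site were 1024 genes after contralateral (908 with the total alone) and 961 after equatorial ICSI, with 2 of the 8 genes after ipsilateral and 1 after equatorial ICSI (also 1 with the total alone, with twin b only, without libraries under 500000 counts and with DESeq2). After ipsilateral ICSI 0 of the 8 were called without a filter on low counts and with twin a only, and without libraries under 500000 counts 2 were, among 2132 genes. Between contralateral and equatorial intact embryos 4 genes were called with the total as covariate, 0 and 6 with twin a or b only, 8 without libraries under 500000 counts and 165 with DESeq2. Between ipsilateral and equatorial ones these were 1 (total), 16 (no shallow libraries) and 21 (DESeq2), and between contralateral and ipsilateral ones 1 without a filter, 0 with both covariates and with twin a only, 9 without shallow libraries and 59 with DESeq2. None of the 8 genes was called between sites of intact embryos in these fits.

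In 2-cell embryos the fit without a filter on low counts called 3930 genes between contralateral and equatorial ICSI, 2603 for ipsilateral against equatorial and 1577 for contralateral against ipsilateral ICSI. The limit of 2% on mitochondrial counts gave 1104 in the first of these, and left 1 of the 8 genes called between ipsilateral and equatorial ICSI, where depth covariates left 62 genes and 0 of the 8. Leaving out each equatorial embryo left 1 to 2 of the 8 called there. The pair test without a filter called 927 genes in twins and 4195 in sisters, with 3 of the 8 genes in each, and with depth covariates 137 genes in twins. The cause of these shifts was not tested.

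Among the 8 genes signs turned in these differences, none of them called: Idi1 in twins (-0.11 with both covariates, -0.075 with the total, -0.010 with twin b), Sc5d in twins (-0.073 in the shared range with twin a), Insig1 between contralateral and equatorial ICSI (0.067 under the mitochondrial limit, and -0.10 to 0.0017 with an embryo left out), Cyp51 between ipsilateral and equatorial ICSI (0.10 with covariates, 0.020 under the mitochondrial limit, -0.26 to 0.089 with an embryo left out), Hmgcs1 there (-0.00043 to 0.087), Lss between contralateral and ipsilateral ICSI (0.019 with covariates, 0.20 on plate 1) and Hmgcs1 between the stages (0.031 with sister a). The call of Cyp51 in twins was lost in 8 of its alternatives. Among Hmgcs1, Idi1, Lss and Sc5d, not called between twin and intact blastocysts in the main fit, 4 recomputed results were called, with unchanged direction. No paired analysis was possible because each embryo has its own number and the groups share none.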

Other observations

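The summed level of the 8 genes was 883 ± 110 CPM in 2-cell embryos (SD, n = 55), 1208 ± 422 in intact blastocysts (n = 31) and 1108 ± 152 CPM in twins (n = 19). That of the 13 other genes of sterol synthesis was 307 ± 58.9, 1290 ± 289 and 1853 ± 206 CPM. The highest twin embryo had 1452 CPM of the 8 genes and the highest intact embryo 2597 CPM, and for the other genes these were 2413 and 2071 CPM. By ICSI site the sums of the 8 genes in 2-cell embryos were 896 ± 106.7 CPM after contralateral, 879 ± 115.5 after ipsilateral and 870 ± 110 CPM after equatorial ICSI.

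Of 8 genes of branches that leave the chain, 1 was called between contralateral and equatorial 2-cell embryos, where 13.2% of all genes were, and 2 for ipsilateral against equatorial ICSI, where 6.65% were. Ggps1, which makes the geranylgeranyl group used to anchor proteins in membranes, was higher than in equatorial embryos by 0.66 ± 0.21 after contralateral (adjusted p = 0.0222) and by 0.74 ± 0.21 after ipsilateral ICSI (adjusted p = 0.0210), with 108.98 ± 39.4, 112 ± 49.4 and 68.9 ± 23.4 CPM after contralateral, ipsilateral and equatorial ICSI. Pdss2, of the side chain of coenzyme Q, was higher by 0.85 ± 0.26 after ipsilateral ICSI (adjusted p = 0.0366) and by 0.71 ± 0.26 after contralateral ICSI, which was not called (adjusted p = 0.0530). Both comparisons use the same 13 equatorial embryos. With total counts and detected genes as covariates the values of Ggps1 were 0.68 ± 0.21 (adjusted p = 0.0313) and 0.68 ± 0.24 (adjusted p = 0.164), and those of Pdss2 0.69 ± 0.28 (adjusted p = 0.121) and 0.85 ± 0.31 (adjusted p = 0.187), for contralateral and ipsilateral ICSI.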
